A study of Mus musculus with 6 samples.

Results

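The cell cycle and mitosis genes described here are 47 mouse genes that act at the entry into S phase, during DNA replication or in mitosis. They were taken by symbol from a list of S-phase and mitotic genes that was drawn up with earlier results of these data known, and all 47 were found among the 55487 genes of the count table. RNA was sequenced from mammary epithelial cells (MECs) of 3 wild-type and 3 IL-21isoTg mice, with 1 library per mouse, to look for changes that precede tumors. All 6 mice were virgin female BALB/c mice at 10 weeks of age. IL-21isoTg mice carry a transgene for a membrane-bound isoform of the cytokine IL-21 whose expression is specific to T cells, and the promoter that drives it is not given in the sources used here. The wild-type mice carry no transgene. MECs of both genotypes were the cells left after CD45-, CD31- and CD140a-bearing cells (leukocytes, endothelium and fibroblasts) were removed with magnetic particles. The study's methods state that estrous stages were randomized, and the stage of each of these mice is not given in the sources used here.

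A dividing cell uses these genes in order. Cyclin D and its kinases inactivate the retinoblastoma protein, which frees E2F transcription factors to switch on genes for DNA synthesis, and cyclin E and cyclin A then drive S phase. Genes for mitosis are switched on later by B-MYB and FOXM1, and cyclin B with CDK1 starts mitosis itself. In resting cells the DREAM complex keeps both sets low. In the virgin mammary gland, epithelial division is driven mainly by progesterone over the estrous cycle, through hormone-receptor-positive cells that secrete RANK ligand (Tnfsf11) and use cyclin D1 (Ccnd1).

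Total counts per mouse were 15902886 to 25719244, and a count of 3, taken as the floor, was worth 0.112 to 0.280 CPM, the unit of counts scaled to the size of the library. The Il21 counts were 0, 0 and 37 in wild-type mice 1 to 3 and 795, 216 and 131 in IL-21isoTg mice 1 to 3. These are counts per gene, and whether they came from the transgene or from the mouse's own Il21 gene was not tested. Salivary gland genes took 5.28% (95% Wilson interval 5.27 to 5.29%, counting error only) of the counts in IL-21isoTg mouse 2 and 42.8% (42.77 to 42.82%) in IL-21isoTg mouse 3, with the other 4 mice between. Wild-type mouse 1 stood apart from the other 5 mice in the cell cycle genes, and the comparisons below are therefore given with and without it. Levels are TMM-normalised CPM. Each p comes from the quasi-likelihood test of edgeR over 17165 genes tested, and adjusted p-values are those of the Benjamini-Hochberg method. The labels do not say whether mice of a genotype were littermates, and the p-values measure only the spread between these mice.

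E2F factors and the B-MYB and FOXM1 complexes are known to act through short promoter motifs, and the promoters below are shown because they hold both kinds, those of replication genes first and those of Cdk1 and mitosis genes after them. RefSeq promoters of GRCm38.p6, running from 250 bases before the start of a gene to 50 after it, were found for 37 of the 47 genes. Mcm4, Gins2, Ccnd1, Ccne2, Ccna2, Cdc25c, Foxm1, Aurkb, Kif20a and Tpx2 had no entry. The stretches shown are the 160 bases before the RefSeq start, which lay within 60 bases of the start of the gene in GENCODE M21 for the 6 genes shown, 5′ to 3′ on the strand of the gene, and capitals mark 3 motifs searched on both strands, which may overlap. These were the E2F site (TTTCGCGC, TTTGGCGC or TTTCCCGC), the cell cycle genes homology region or CHR (TTTGAA) and the CCAAT box.
Mcm5, chr8:75109349-75109508, + strand: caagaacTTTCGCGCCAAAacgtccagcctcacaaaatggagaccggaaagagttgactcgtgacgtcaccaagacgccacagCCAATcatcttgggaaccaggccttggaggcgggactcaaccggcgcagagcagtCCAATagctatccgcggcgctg
Mcm6, chr1:128359706-128359865, - strand: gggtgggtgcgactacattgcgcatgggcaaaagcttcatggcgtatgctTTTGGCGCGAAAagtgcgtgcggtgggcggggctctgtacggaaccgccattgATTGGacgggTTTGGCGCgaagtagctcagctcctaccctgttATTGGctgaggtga
Cdk1, chr10:69352913-69353072, - strand: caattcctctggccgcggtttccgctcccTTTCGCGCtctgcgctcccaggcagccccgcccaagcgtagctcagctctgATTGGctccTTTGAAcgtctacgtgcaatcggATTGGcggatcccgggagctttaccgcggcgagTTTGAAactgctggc
Top2a, chr11:99024190-99024349, - strand: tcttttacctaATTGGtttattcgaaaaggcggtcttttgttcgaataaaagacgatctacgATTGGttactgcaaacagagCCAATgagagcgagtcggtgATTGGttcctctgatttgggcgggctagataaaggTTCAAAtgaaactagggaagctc
Cdc20, chr4:118437344-118437503, - strand: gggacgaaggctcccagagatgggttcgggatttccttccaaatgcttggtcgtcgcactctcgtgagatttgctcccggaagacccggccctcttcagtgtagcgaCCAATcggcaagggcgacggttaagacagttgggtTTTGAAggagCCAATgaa
Kif11, chr19:37376222-37376381, + strand: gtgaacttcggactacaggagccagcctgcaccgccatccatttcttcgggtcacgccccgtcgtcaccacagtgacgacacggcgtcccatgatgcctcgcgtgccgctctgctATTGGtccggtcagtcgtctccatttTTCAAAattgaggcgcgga

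An E2F site was present in 8 of the 37 promoters (21.6%), against 2.12% of the promoter sets of 27025 genes, and 7 of the 13 replication genes held one (Mcm3, Mcm5, Mcm6, Mcm7, Cdc6, Cdt1 and Uhrf1) against 0 of the 17 genes of the mitosis roles. In Cdc6 and Mcm7 the RefSeq start lay 350 bases and at least 539 bases inside the gene of GENCODE M21, so that their windows are not the stretch before that start. Uhrf1 had RefSeq starts 16 and 992 bases inside its gene, and a motif in either window was counted. Cdk1 was the remaining gene with an E2F site. A CHR was present in 17 of 37 (45.9%), against 20.2% of all genes. It was found in 12 of the 17 mitosis genes (70.6%) and in 1 of the 13 replication genes, Mcm2. CCAAT boxes were present in 28 of 37 (75.7%), against 41.1% of all genes, and the 17 promoters with a CHR all held a CCAAT box as well, a combination found in 7.97% of all genes. In the stretches shown, the Mcm5 and Mcm6 promoters each have 2 overlapping E2F matches, on opposite strands, which begin at -153 and -149 in Mcm5 and at -110 and -106 in Mcm6. Mcm6 has another E2F site at -47, whereas the Cdc20 and Kif11 promoters have a CHR at -18 and -19. The Cdk1 promoter has an E2F site at -131 and a CHR at -71 and -15. These matches are descriptions of letters and do not show that a factor is bound in these cells.

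All 47 genes had a lower mean level in IL-21isoTg than in wild-type MECs, but none passed the test, and much of the difference lay in 1 wild-type mouse. The summed level of the 47 genes was 2178, 878 and 984 CPM in wild-type mice 1 to 3 and 507, 892 and 545 CPM in IL-21isoTg mice 1 to 3. Wild-type mouse 1 was highest, IL-21isoTg mouse 2 lay with wild-type mice 2 and 3, and IL-21isoTg mice 1 and 3 were lowest, so the groups overlapped in their sums. The log2 fold changes ran from -2.51 (Aurkb) to -0.37 (Gins2) with a median of -1.29, against a median of -0.02 over all genes tested, of which 52.1% were below 0. At an adjusted p under 0.05, 0 of the 47 genes were called, as were 0 of all 17165 genes (0% called), and the adjusted p of the 47 genes lay between 0.795 and 0.832. Over all genes 999 had an unadjusted p under 0.05, and DESeq2 and the likelihood ratio test of edgeR called 81 and 65 genes, 0 of them among the 47. At an unadjusted p under 0.05, 19 of the 47 genes (40.4%) were lower and 0 higher, where 2.63% of all genes were lower. These were Mcm2, Mcm3, Mcm6, Gins2, Rrm1, Tk1, Uhrf1, Ccnd1, Ccna2, Cdk1, Cdc25c, Aurka, Aurkb, Bub1, Mad2l1, Cdc20, Cenpf, Kif20a and Top2a. The 3 wild-type values were all above the 3 IL-21isoTg values in 9 of 47 genes (19.1%; Mcm2, Mcm3, Gins2, Rrm1, Tk1, Ccne2, Aurka, Aurkb and Kif20a), against 6.54% of all genes. Where the log2 fold change of a gene over all mice is given below without a p, its adjusted p was 0.809. In whole-population RNA, fewer dividing cells and less RNA per dividing cell cannot be told apart.

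**Figure D1:**
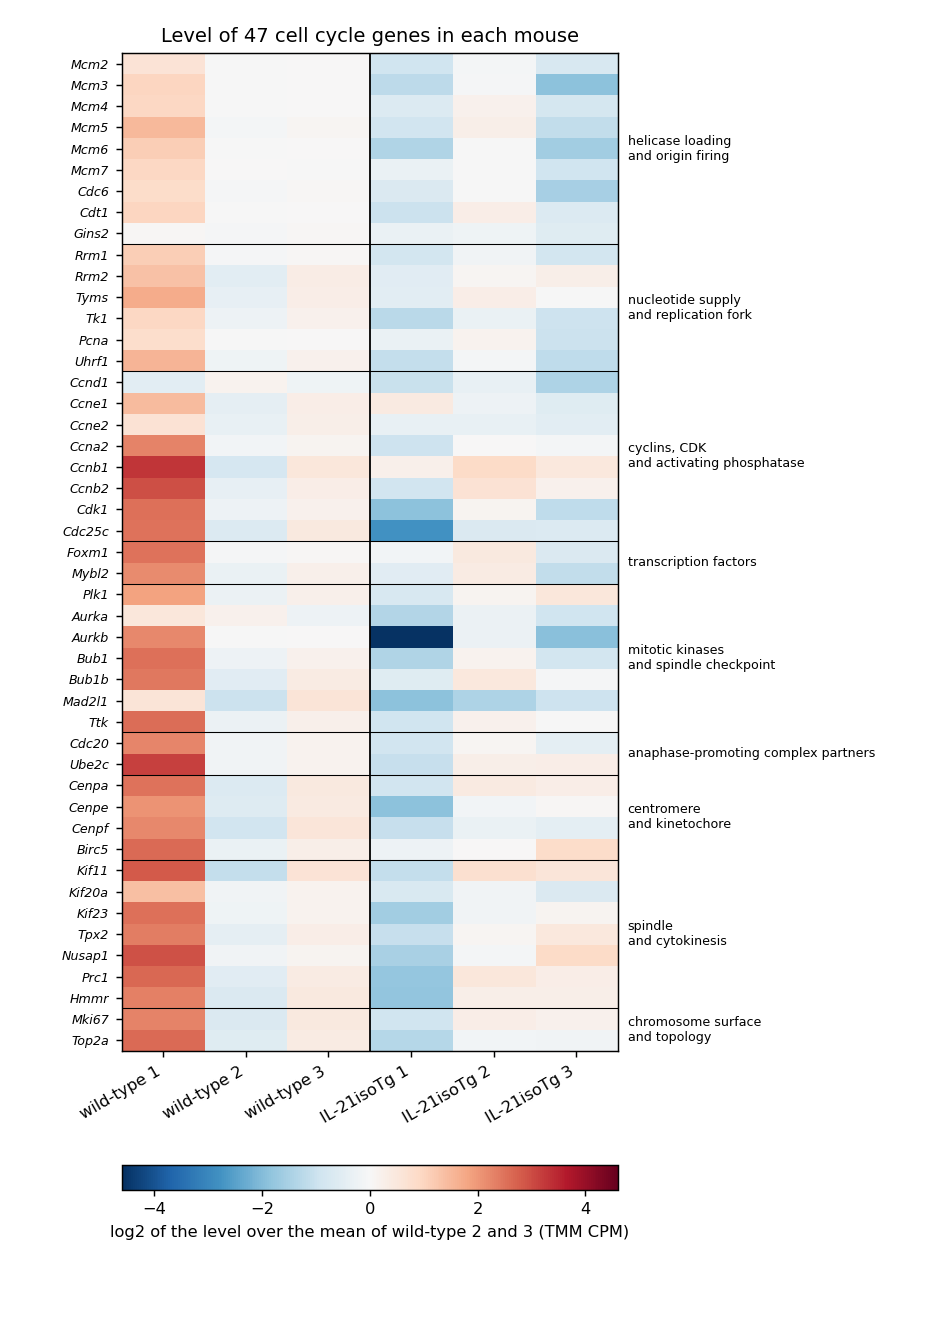
Colour gives the log2 of each gene's TMM-normalised CPM over its mean in wild-type mice 2 and 3, with 1 row for each of the 47 genes, grouped by role, and 1 column per mouse (red is higher and blue lower). Wild-type mouse 1 is above 0 in 46 of 47 rows, Ccnd1 being the exception, and IL-21isoTg mouse 1 is the lowest of the 6 mice in 30 rows. In the row of Gins2, wild-type mouse 1 is at only 0.07 and close to white. In the row of Ccnd1 the highest level is in wild-type mouse 2.

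Wild-type mouse 1 had the highest level of the 6 mice in 46 of the 47 genes (97.9%), against 24.7% of all genes tested. Its level was a median of 4.57 times the mean of wild-type mice 2 and 3, from 0.715 times for Ccnd1 to 9.68 times for Ccnb1. The lowest level was in IL-21isoTg mouse 1 for 30 genes, in IL-21isoTg mouse 3 for 14 and in wild-type mouse 2 for the other 3 (Ccnb1, Birc5 and Kif11). Without wild-type mouse 1, 39 genes were lower and 8 higher in IL-21isoTg MECs, and the median log2 fold change was -0.34, against 0.01 over the 17667 genes then tested, of which 48.7% were below 0. The genes were measured in the same mice, so their directions are not independent of each other. In that fit 0 of 47 were called, 4 (8.51%; Rrm1, Tk1, Ccnd1 and Mad2l1) were lower at an unadjusted p under 0.05 where 3.21% of all genes were, and the smallest adjusted p was 0.708. Both remaining wild-type values were above all 3 IL-21isoTg values in 10 genes (21.3%), against 14.9% of all genes. The count of 19 genes also rested on other mice. It was 1 (2.13%, against 1.16% of all genes) without IL-21isoTg mouse 1, 3 (6.38%, against 1.61%) without IL-21isoTg mouse 3 and 37 (78.7%, against 2.79%) without wild-type mouse 2.

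**Figure D2:**
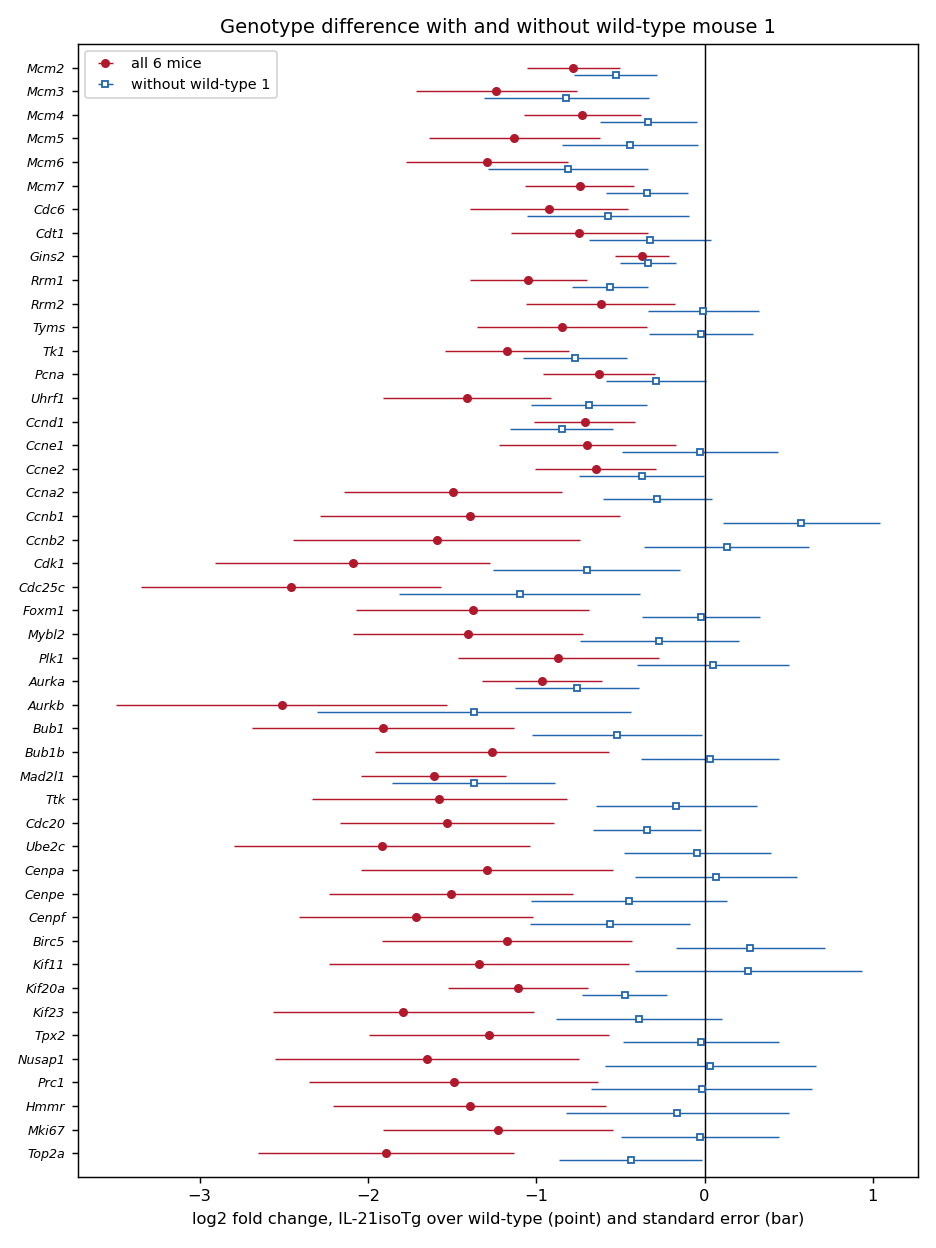
Points give the log2 fold change of IL-21isoTg over wild-type MECs for each of the 47 genes and bars its standard error, with all 6 mice (filled circles) and without wild-type mouse 1 (open squares). All 47 circles lie below 0, while 39 squares lie below 0 and 8 above it.

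Wild-type mouse 1 stayed highest and IL-21isoTg mice 1 and 3 lowest when the counts of 18 salivary gland genes were set aside. Scaled to the counts outside these genes, the summed level of the 47 genes was 2858, 1153 and 1304 CPM in wild-type mice 1 to 3 and 621, 1098 and 642 CPM in IL-21isoTg mice 1 to 3. IL-21isoTg mouse 3, with the largest salivary share, lay close to IL-21isoTg mouse 1, whose salivary share was 23.7% (95% Wilson interval 23.72 to 23.75%). Other RNA of salivary cells stays in these totals, so the scaling does not remove their share. The part of salivary cells in the levels was not tested. With both wild-type mouse 1 and IL-21isoTg mouse 3 left out, 41 genes were lower and 6 higher, the median log2 fold change was -0.32, and 2 genes (4.26%) were lower at an unadjusted p under 0.05, near the 3.51% of all genes in the same fit.

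The 9 genes of helicase loading and origin firing were lower in IL-21isoTg MECs in the mean, and their direction was the same without wild-type mouse 1. Their median log2 fold change was -0.78 with all mice and -0.44 without that mouse, and all 9 were below 0 both times. Mcm2, a subunit of the MCM2-7 helicase that unwinds DNA at the fork, was at 61.7, 39.5 and 40.0 CPM in wild-type mice 1 to 3 and at 20.9, 37.5 and 23.8 CPM in IL-21isoTg mice 1 to 3. The 2 groups did not overlap, though IL-21isoTg mouse 2 came close to the wild-type values, and the log2 fold change was -0.78 ± 0.28 (SE, adjusted p = 0.809). Without wild-type mouse 1 it was -0.53 ± 0.25 (adjusted p = 0.732).

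Mcm5, another subunit of the helicase, was at 102, 33.8 and 38.8 CPM in wild-type and at 19.6, 43.5 and 16.4 CPM in IL-21isoTg mice. Here IL-21isoTg mouse 2 was above wild-type mice 2 and 3, and the log2 fold change of -1.13 ± 0.51 (SE) became -0.44 ± 0.40 without wild-type mouse 1. Cdc6, which loads the helicase at origins, was the lowest of the 47 genes per exon length in wild-type MECs, at 5.37, 2.88 and 3.06 CPM against 1.87, 2.94 and 1.03 CPM in IL-21isoTg mice. Its log2 fold change was -0.92 ± 0.47 (SE), and -0.57 ± 0.48 without wild-type mouse 1. Mcm6, a further subunit of the helicase, was at 104, 46.8 and 48.6 CPM and at 18.04, 47.1 and 15.8 CPM, so that IL-21isoTg mouse 2 was close to wild-type mice 2 and 3 while the other 2 IL-21isoTg mice were lower than every wild-type mouse. The log2 fold change of Mcm6 of -1.29 ± 0.48 (SE) became -0.81 ± 0.48 without wild-type mouse 1. The other 5 genes of this role (Mcm3, Mcm4, Mcm7, Cdt1 and Gins2) had log2 fold changes of -1.24 to -0.37. Gins2 shares 2758 bp of its 4097 bp of exons with Gse1 on the opposite strand, and whether reads were counted by strand is not given in the sources used here.

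Genes that supply nucleotides or act at the replication fork gave the same pattern, with 6 of 6 below 0 (median -0.95 with all mice and -0.43 without wild-type mouse 1). Rrm1, the large subunit of ribonucleotide reductase, was at 94.8, 41.7 and 45.7 CPM in wild-type and at 24.5, 39.0 and 24.5 CPM in IL-21isoTg mice, without overlap. The log2 fold change was -1.05 ± 0.35 (SE) and -0.56 ± 0.23 (adjusted p = 0.711) without wild-type mouse 1. Tk1, the thymidine kinase of the salvage pathway, was at 28.4, 12.4 and 16.7 CPM in wild-type and at 6.15, 11.8 and 7.46 CPM in IL-21isoTg mice. These groups did not overlap either although wild-type mouse 2 and IL-21isoTg mouse 2 were close, and the log2 fold change was -1.17 ± 0.37 (SE) with all mice and -0.77 ± 0.31 (adjusted p = 0.711) without wild-type mouse 1.

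Rrm2, the small subunit of the reductase, and Tyms, the thymidylate synthase, had log2 fold changes near 0 without wild-type mouse 1. Rrm2 was at 32.0, 9.03 and 16.1 CPM in wild-type and at 8.81, 13.3 and 15.2 CPM in IL-21isoTg mice, and its log2 fold change went from -0.62 ± 0.44 (SE, adjusted p = 0.827) to -0.01 ± 0.33. Tyms was at 32.7, 7.74 and 12.2 CPM and at 7.15, 12.3 and 9.89 CPM, and went from -0.85 ± 0.51 (SE) to -0.02 ± 0.31. In both genes wild-type mice 2 and 3 lay within the range of the IL-21isoTg mice or next to it. Uhrf1, which carries DNA methylation through replication, was at 70.7, 21.0 and 27.4 CPM in wild-type and at 11.2, 22.7 and 10.6 CPM in IL-21isoTg mice, with log2 fold changes of -1.41 ± 0.50 (SE) and, without wild-type mouse 1, -0.69 ± 0.34 (adjusted p = 0.732). Pcna, the sliding clamp of the DNA polymerases, was at 113, 63.4 and 64.6 CPM and at 52.1, 71.6 and 32.2 CPM. Its log2 fold change of -0.63 ± 0.33 (SE) became -0.29 ± 0.30 without wild-type mouse 1.

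Ccnd1, the cyclin that links growth signals to the retinoblastoma protein, was the one gene of the 47 that was not highest in wild-type mouse 1. It was at 171, 269 and 210.0 CPM in wild-type and at 116, 191 and 89.4 CPM in IL-21isoTg mice. IL-21isoTg mouse 2 lay between wild-type mice 1 and 3, and the other 2 IL-21isoTg mice were below all wild-type mice. The log2 fold change was -0.71 ± 0.30 (SE, adjusted p = 0.809), and without wild-type mouse 1 it was -0.85 ± 0.31 (adjusted p = 0.708), so that leaving out this mouse enlarged the difference. Ccnd1 (chr7:144929931-144939925 of GRCm38, - strand) shares 1100 of its 4709 bp of exons with LTO1 on the opposite strand.

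Ccne1 and Ccne2, the E cyclins of the entry into S phase, were low in all mice. Ccne1 was at 6.72, 1.87 and 3.06 CPM in wild-type and at 3.33, 2.12 and 1.68 CPM in IL-21isoTg mice, and its log2 fold change of -0.70 ± 0.53 (SE, adjusted p = 0.832) was the one with the largest p of the 47 genes and became -0.03 ± 0.46 without wild-type mouse 1. Ccne2 was at 5.01, 2.498 and 3.78 CPM and at 2.45, 2.49 and 2.24 CPM. The groups of Ccne2 touched without crossing, with a log2 fold change of -0.65 ± 0.36 (SE) that became -0.37 ± 0.37. Ccne2 shares 609 of its 3495 bp of exons with Ints8 on the opposite strand. Ints8 had 297 to 735 counts per mouse, against 24 to 111 for Ccne2.

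In the cyclins and the kinase of G2 and mitosis, wild-type mouse 1 lay far above the other 5 mice. Ccna2, cyclin A2 of S phase and G2, was at 49.2, 9.18 and 10.8 CPM in wild-type and at 5.11, 10.16 and 9.33 CPM in IL-21isoTg mice (log2 fold change -1.50 ± 0.65, SE), and without wild-type mouse 1 the log2 fold change was -0.28 ± 0.32. Ccna2 shares 510 of its 4083 bp of exons with Exosc9 on the opposite strand. Ccnb1, the cyclin B1 that starts mitosis with CDK1, was at 24.9, 1.49 and 3.65 CPM in wild-type and at 2.99, 4.77 and 3.64 CPM in IL-21isoTg mice. Wild-type mouse 2 was the lowest of the 6, and the log2 fold change of -1.39 ± 0.89 (SE, adjusted p = 0.820) turned to 0.58 ± 0.47 (adjusted p = 0.788) without wild-type mouse 1.

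Cdk1, the mitotic kinase, was at 36.7, 5.38 and 7.15 CPM in wild-type and at 1.71, 6.92 and 2.80 CPM in IL-21isoTg mice. IL-21isoTg mouse 2 again lay with wild-type mice 2 and 3, and the log2 fold change was -2.09 ± 0.82 (SE) with all mice and -0.70 ± 0.56 (adjusted p = 0.783) without wild-type mouse 1. Cdc25c, the phosphatase that activates CDK1, was at 11.4, 1.30 and 2.75 CPM and at 0.291, 1.27 and 1.31 CPM, with a count of 7 in IL-21isoTg mouse 1. Its log2 fold change of -2.46 ± 0.89 (SE) became -1.10 ± 0.72 (adjusted p = 0.751). Over the 8 genes of this role, Ccnb2 included, the median was -1.44 with all mice and -0.33 without wild-type mouse 1.

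The transcription factors of the mitotic program were high in wild-type mouse 1, and the genotypes lay across each other in the other 5 mice. Foxm1, which switches on G2 and mitosis genes, was at 33.2, 5.72 and 6.03 CPM in wild-type and at 5.41, 7.97 and 3.73 CPM in IL-21isoTg mice, and its log2 fold change went from -1.38 ± 0.69 (SE) to -0.02 ± 0.35 without wild-type mouse 1. Mybl2, which encodes B-MYB, was at 17.7, 3.17 and 4.59 CPM and at 2.70, 4.99 and 1.77 CPM, and went from -1.40 ± 0.68 (SE) to -0.27 ± 0.47.

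Among the mitotic kinases and the spindle checkpoint, Mad2l1 stood apart from its neighbours. Mad2l1 (chr6:66535390-66547220, + strand), which holds back anaphase until chromosomes are attached, was at 48.1, 16.2 and 47.9 CPM in wild-type and at 8.69, 11.8 and 16.5 CPM in IL-21isoTg mice. Wild-type mice 1 and 3 were equally high, and wild-type mouse 2 lay at the level of IL-21isoTg mouse 3, so the groups just overlapped. Its log2 fold change of -1.61 ± 0.43 (SE) had the smallest p of the 47 genes (adjusted p = 0.795), and it was -1.37 ± 0.48 (adjusted p = 0.708) without wild-type mouse 1. Aurkb, the kinase of the chromosomal passenger complex, had the largest difference of the 47 genes, at 18.2, 3.89 and 3.91 CPM in wild-type and at 0.166, 3.24 and 1.03 CPM in IL-21isoTg mice. The groups did not overlap, but the value of IL-21isoTg mouse 1 rested on a count of 4, and the log2 fold change was -2.51 ± 0.98 (SE) with all mice and -1.37 ± 0.93 (adjusted p = 0.764) without wild-type mouse 1.

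Bub1, a kinase of the checkpoint, was at 20.8, 3.03 and 4.09 CPM in wild-type and at 1.37, 4.02 and 1.96 CPM in IL-21isoTg mice. IL-21isoTg mouse 2 was between wild-type mice 2 and 3, and the log2 fold change of -1.91 ± 0.78 (SE) became -0.52 ± 0.50 without wild-type mouse 1. Plk1, the polo-like kinase of mitotic entry, was at 11.6, 2.64 and 3.74 CPM and at 1.91, 3.46 and 4.57 CPM. Here 2 IL-21isoTg mice were above wild-type mouse 2, and the log2 fold change of -0.87 ± 0.60 (SE, adjusted p = 0.827) became 0.05 ± 0.45. The remaining kinases and checkpoint genes (Aurka, Bub1b and Ttk) had log2 fold changes of -1.58 to -0.96 with all mice, and all 7 genes of this role were lowest in IL-21isoTg mouse 1.

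Both partners of the anaphase-promoting complex followed wild-type mouse 1. Cdc20, which activates this ubiquitin ligase, was at 44.6, 8.26 and 10.4 CPM in wild-type and at 5.03, 9.90 and 6.90 CPM in IL-21isoTg mice, with a log2 fold change of -1.53 ± 0.64 (SE) that became -0.34 ± 0.32 without wild-type mouse 1. Ube2c, its ubiquitin-conjugating enzyme, was at 46.7, 4.66 and 5.85 CPM and at 2.54, 6.33 and 6.44 CPM. In this gene 2 IL-21isoTg mice were above wild-type mice 2 and 3, and the log2 fold change of -1.91 ± 0.88 (SE) became -0.04 ± 0.44.

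In the centromere genes the direction without wild-type mouse 1 was split, with 2 of 4 below 0. Cenpa, the histone H3 variant of centromeres, was at 32.1, 3.65 and 7.69 CPM in wild-type and at 3.08, 7.63 and 7.09 CPM in IL-21isoTg mice, and its log2 fold change went from -1.29 ± 0.75 (SE) to 0.07 ± 0.48. Birc5, which encodes the passenger protein survivin, was at 19.0, 2.498 and 3.74 CPM and at 2.62, 3.13 and 5.60 CPM, and went from -1.17 ± 0.74 (SE, adjusted p = 0.817) to 0.27 ± 0.44. Cenpe and Cenpf were at -1.51 and -1.71 with all mice and at -0.45 and -0.56 without wild-type mouse 1. Wild-type mouse 2 was low in all 4 genes, at a median of 0.654 times the mean of wild-type mice 2 and 3.

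In the 7 genes of the spindle and of cytokinesis the median log2 fold change was -1.40 with all mice and -0.02 without wild-type mouse 1. Kif11, the motor that pushes spindle poles apart, was at 34.3, 2.26 and 7.47 CPM in wild-type and at 2.29, 8.08 and 7.09 CPM in IL-21isoTg mice. Wild-type mouse 2 and IL-21isoTg mouse 1 were equally low, and the log2 fold change of -1.34 ± 0.89 (SE, adjusted p = 0.820) became 0.26 ± 0.67. Kif20a, a motor of cytokinesis, was the gene of this role whose groups did not overlap, at 30.7, 10.4 and 13 CPM and at 7.19, 10.4 and 7.46 CPM, although wild-type mouse 2 and IL-21isoTg mouse 2 were almost equal. The log2 fold change of Kif20a was -1.11 ± 0.41 (SE) with all mice and -0.47 ± 0.25 without wild-type mouse 1. This gene shares 1271 of its 4338 bp of exons with Cdc23 on the opposite strand. The other genes of this role (Kif23, Tpx2, Nusap1, Prc1 and Hmmr) had log2 fold changes of -1.79 to -1.28 with all mice and of -0.39 to 0.04 without wild-type mouse 1.

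Mki67 and Top2a, the usual markers of dividing cells, were among the more abundant of the late genes. Mki67 (chr7:135689784-135716361, - strand), which encodes the Ki-67 protein that coats mitotic chromosomes, was at 157, 20.3 and 44.6 CPM in wild-type and at 17.1, 40.4 and 37.4 CPM in IL-21isoTg mice. Apart from wild-type mouse 1 the genotypes lay across each other, wild-type mouse 2 being near IL-21isoTg mouse 1 and wild-type mouse 3 near the other 2 IL-21isoTg mice. The log2 fold change was -1.23 ± 0.68 (SE, adjusted p = 0.809) and -0.03 ± 0.47 (adjusted p = 0.993) without wild-type mouse 1. Top2a, the topoisomerase that untangles sister chromatids, was at 143, 15.9 and 30.5 CPM and at 9.27, 21.2 and 20.6 CPM. Its log2 fold change was -1.89 ± 0.76 (SE, adjusted p = 0.809) with all mice and -0.44 ± 0.42 (adjusted p = 0.819) without wild-type mouse 1.

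The levels of replication and mitosis genes can be set side by side in each mouse. In wild-type mouse 1 the 15 genes of both replication roles were a median of 1.99 times the mean of wild-type mice 2 and 3, and the 20 genes of the 4 mitosis roles a median of 5.22 times. IL-21isoTg mouse 2 was near wild-type mice 2 and 3 in all roles, from 0.935 times their mean in the cyclin role to 1.32 times in the transcription factors. IL-21isoTg mouse 1 was low in all roles, from 0.359 times in the spindle genes to 0.801 times in the transcription factors. IL-21isoTg mouse 3 was at 0.536 times in both replication roles, 0.539 times in the transcription factors, 0.55 times in the mitotic kinases and checkpoint genes and 0.697 times in the cyclin role. It was at 0.953 times in the partners of the anaphase-promoting complex, 1.01 times in Mki67 and Top2a, 1.13 times in the centromere genes and 1.237 times in the spindle genes. The mitosis roles were thus not alike in this mouse, and the kinase and checkpoint genes were split. As log2 over the mean of wild-type mice 2 and 3, Aurkb was at -1.93, Mad2l1 at -0.96, Aurka at -0.91 and Bub1 at -0.86. By contrast, Bub1b was at -0.05, Ttk at -0.03 and Plk1 at 0.52. Without wild-type mouse 1, 15 of 15 replication genes were below 0 (median -0.44) and 14 of 20 mitosis genes (median -0.16), where 48.7% of all genes were. The difference between these sets was not tested, and genes measured in the same mice are not independent.

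**Figure D3:**
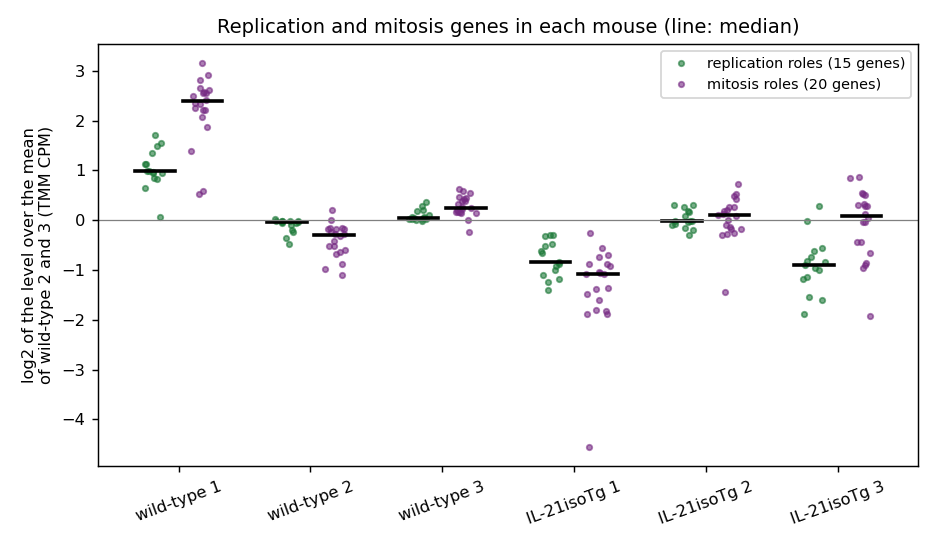
Each point is 1 gene in 1 mouse, as log2 of its TMM-normalised CPM over its mean in wild-type mice 2 and 3, for the 15 replication genes (green) and the 20 mitosis genes (purple), with the median as a black line. In wild-type mouse 1 the median of the mitosis genes lies above that of the replication genes, and in IL-21isoTg mouse 3 the mitosis genes spread from -1.93 (Aurkb) to 0.87 (Nusap1).

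Levels between genes can be compared per length of exon. Per kilobase of exons in GENCODE M21, Ccnd1 was the most abundant of the 47 genes in wild-type MECs, at a mean of 46.0 CPM per kb, followed by Pcna at 33.5, Mcm5 at 14.6, Mcm6 at 14.2 and Mcm4 at 13.5 CPM per kb. Mki67 and Top2a were at 7.35 and 7.004 CPM per kb, and Cenpf and Cdc6 were lowest at 0.723 and 0.721 CPM per kb. In IL-21isoTg MECs, Ccnd1 and Pcna were at means of 28.1 and 21.7 CPM per kb and Cdc6 at 0.372 CPM per kb. These means carry the high value of wild-type mouse 1 for all genes but Ccnd1, and exon lengths that include minor isoforms lower the value of a gene.

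Other genes of the same pathways were read from lists set beside the 47. Of 17 genes of the RB, E2F and DREAM complexes, 3 (17.6%; E2f1, E2f2 and Rbl1) were lower at an unadjusted p under 0.05, where 2.63% of all genes were, and 0 were higher, none with an adjusted p under 0.05. Without wild-type mouse 1 the count was again 3 (E2f2, Rbl1 and Rb1), against 3.21% of all genes. E2f2, an activating E2F factor, was at 3.74, 3.51 and 3.65 CPM in wild-type and at 0.541, 2.20 and 0.466 CPM in IL-21isoTg mice. The 3 wild-type mice were almost equal and all IL-21isoTg mice were below them, so its log2 fold change hardly moved without wild-type mouse 1 (-1.71 ± 0.60 with it, SE; -1.68 ± 0.67 without it, adjusted p = 0.708). The E2f2 values of IL-21isoTg mice 1 and 3 rested on counts of only 13 and 5. Rbl1, which encodes the pocket protein p107, was at 21.2, 13.2 and 12.5 CPM and at 5.95, 9.57 and 6.25 CPM, again without overlap, with log2 fold changes of -1.10 ± 0.30 (SE) and -0.81 ± 0.27 (adjusted p = 0.708). E2f1 was at 14.1, 6.49 and 9.63 CPM and at 3.74, 6.96 and 1.31 CPM (log2 fold change -1.30 ± 0.55, SE, and -0.97 ± 0.58 without wild-type mouse 1).

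None of the 7 CDK inhibitors had an unadjusted p under 0.05, and their log2 fold changes ran from -0.999 to 0.39. Of 12 other cyclins, CDKs and regulators of CDKs (Wee1, Pkmyt1, Cdc25a and Cdc25b), 1 (8.33%) was lower at an unadjusted p under 0.05, where 2.63% of all genes were. Over this list 5 genes were above 0 with all mice, and 8 without wild-type mouse 1 (median log2 fold change 0.04). The gene lower at that level was Cdk6, a kinase partner of cyclin D1. It was at 37.2, 41.4 and 32.0 CPM in wild-type and at 25.9, 27.5 and 21.7 CPM in IL-21isoTg mice. These groups did not overlap, and the log2 fold change was -0.56 ± 0.17 (SE) and -0.54 ± 0.19 (adjusted p = 0.708) without wild-type mouse 1. Ccnd3, cyclin D3, went the other way, at 42.85, 47.2 and 41.3 CPM in wild-type and at 62.4, 51.6 and 47.4 CPM in IL-21isoTg mice. Its groups did not overlap either, though wild-type mouse 2 and IL-21isoTg mouse 3 were close. The log2 fold change of Ccnd3 was 0.30 ± 0.16 (SE) and 0.30 ± 0.18 without wild-type mouse 1. That of Cdk4 went from -0.43 ± 0.28 (SE, adjusted p = 0.820) to -0.03 ± 0.16. 

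Of 30 other replication genes, 12 (40%) were lower at an unadjusted p under 0.05, where 2.63% of all genes were, and 0 higher, with a median log2 fold change of -0.76 over the 30. The 8 with the smallest p were Prim1, Orc5, Pola1, Dut, Rfc4, Rfc3, Lig1 and Pole. Prim1, the primase that starts new strands, was at 26.3, 13.1 and 15.8 CPM in wild-type and at 6.90, 9.94 and 6.06 CPM in IL-21isoTg mice. It did not overlap, and had log2 fold changes of -1.26 ± 0.32 (SE, adjusted p = 0.757) and, without wild-type mouse 1, -0.90 ± 0.26 (adjusted p = 0.634). Orc5, a subunit of the origin recognition complex, was at 12.2, 9.75 and 11.2 CPM and at 6.57, 6.03 and 7.27 CPM, with log2 fold changes of -0.74 ± 0.22 (SE) and -0.65 ± 0.23 (adjusted p = 0.708). These were the 2 genes of this list with an unadjusted p under 0.05 without wild-type mouse 1 (6.67%, against 3.21% of all genes), when 25 of the 30 were below 0.

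Of 49 other mitosis genes, all were below 0 with all mice (median -1.34), 11 (22.4%) at an unadjusted p under 0.05, where 2.63% of all genes were lower. Smc2, Cdca2, Gtse1, Nuf2, Aspm, Kif14, Racgap1 and Pbk had the smallest p. Smc2, a subunit of condensin, was at 39.7, 13.5 and 16.2 CPM in wild-type and at 6.11, 11.3 and 5.69 CPM in IL-21isoTg mice, and was the one gene of this list with an unadjusted p under 0.05 both with all mice (log2 fold change -1.58 ± 0.46, SE) and without wild-type mouse 1 (-0.93 ± 0.32; adjusted p = 0.708). Without that mouse this 1 gene was 2.04% of the list, below the 3.21% of all genes, and 38 of the 49 were below 0 with a median of -0.22. Over both lists, as over the 47 genes, wild-type mouse 1 was highest in nearly all genes (28 of 30 and 48 of 49).

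Among 10 growth signals upstream of cyclin D1, 1 (10%), Tnfsf11, was lower at an unadjusted p under 0.05 with all mice, against 2.63% of all genes. None was higher at that level. Without wild-type mouse 1, 2 other genes were lower at that level, Fgfr2 and Erbb2 (20%, against 3.21% of all genes). Fgfr2, a receptor for fibroblast growth factors, was at 109, 261 and 306 CPM in wild-type and at 151, 153 and 159 CPM in IL-21isoTg mice, so that wild-type mouse 1 was the lowest of the 6, and its log2 fold change without that mouse was -0.87 ± 0.15 (SE, adjusted p = 0.335). For Erbb2, a receptor kinase of the same family as the EGF receptor, it was -0.40 ± 0.15 (SE, adjusted p = 0.708). Tnfsf11, the progesterone-induced RANK ligand, was at 27.1, 1.73 and 1.04 CPM in wild-type and at 0.790, 0.521 and 0.373 CPM in IL-21isoTg mice. Wild-type mouse 1 was thus at 19.6 times the mean of wild-type mice 2 and 3, and IL-21isoTg mouse 3 had a count of 4. The log2 fold change was -4.08 ± 1.26 (SE, adjusted p = 0.809) with all mice and -1.24 ± 0.62 (adjusted p = 0.732) without wild-type mouse 1. Wild-type mouse 1 was at the same time the lowest of the 6 mice in Pgr, the progesterone receptor (53.5, 111 and 190 CPM in wild-type and 86.8, 117 and 87.4 CPM in IL-21isoTg mice), and in Esr1, the estrogen receptor (31.9, 66.4 and 62.7 CPM and 32.6, 51.2 and 32.4 CPM). Over 8 genes of hormone receptors and of the response to progesterone, Tnfsf11 among them, the sums were 890, 1589 and 1765 CPM in wild-type and 813, 1539 and 822 CPM in IL-21isoTg mice. All 8 were below 0 with all mice (median log2 fold change -0.49, 1 at an unadjusted p under 0.05) and without wild-type mouse 1 (median -0.81), when 4 of them (50%; Foxa1, Prlr, Esr1 and Pgr) were lower at an unadjusted p under 0.05, against 3.21% of all genes, with a smallest adjusted p of 0.503. In their sum, as in that of the 47 genes, IL-21isoTg mice 1 and 3 were lowest and IL-21isoTg mouse 2 lay near wild-type mice 2 and 3, whereas wild-type mouse 1 was low here. The part of the estrous stage in these values was not tested.

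**Figure D4:**
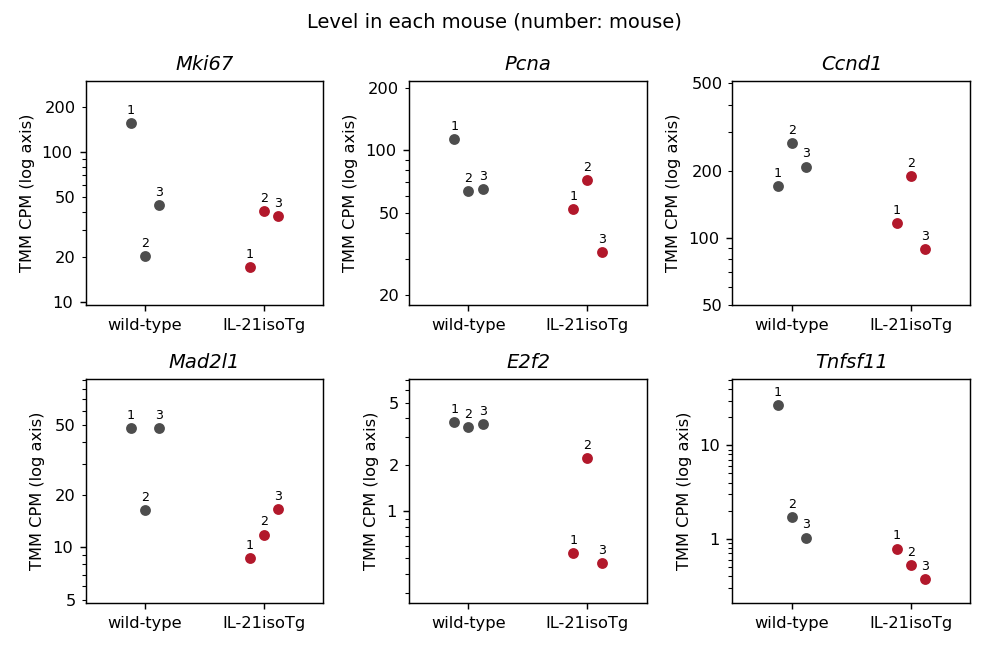
Each point is the TMM-normalised CPM of a gene in 1 mouse, on a log axis, with the number of the mouse above it, wild-type in grey and IL-21isoTg in red. Wild-type mouse 1 lies far above all other mice for Mki67 (157 CPM) and Tnfsf11 (27.1 CPM) but not for Ccnd1, Mad2l1 or E2f2.

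In summed markers of the epithelium wild-type mouse 1 lay among the other mice, but single markers differed. The epithelial genes Epcam (674 to 1144 CPM), Krt8 (1630 to 3009 CPM) and Krt5 (131 to 349 CPM) were present in all 6 mice. These genes are known from salivary gland epithelium too, and summed salivary gland markers (16 of 19 genes tested) were 243200, 56190 and 149600 CPM in wild-type and 253800, 45250 and 634700 CPM in IL-21isoTg mice, so the 3 genes show epithelium and do not tell mammary from salivary cells. Summed luminal markers (10 genes) were 8211, 7236 and 8140 CPM in wild-type and 6200, 10280 and 8007 CPM in IL-21isoTg mice, and summed basal markers (8 genes) were 1715, 2100 and 1657 CPM and 3101, 2788 and 1814 CPM. Wild-type mouse 1 lay inside the range of the other mice in both sums, which abundant keratins carry. Its single luminal markers ran from 0.227 times (Prlr) to 1.43 times (Cdh1) the mean of wild-type mice 2 and 3, and its basal markers from 0.462 times (Myh11) to 1.84 times (Trp63). Leukocyte markers, from cells that can divide as well, were low in sum (5 genes, 20.6, 6.87 and 22.8 CPM in wild-type and 11.02, 14.9 and 22.9 CPM in IL-21isoTg mice). Ptprc, which encodes CD45, was at 2.16 to 9.40 CPM and Cd3e, of T cells, at 1.39 to 4.32 CPM. Neither was highest in wild-type mouse 1. That mouse was highest in 2 of the 5 leukocyte markers, in 1 of the 9 T cell markers tested and in 3 of the 5 B cell markers tested. Summed T cell markers (9 of 10 genes tested) were 14.1, 8.65 and 13.9 CPM in wild-type and 14.3, 12.8 and 12.4 CPM in IL-21isoTg mice. Summed B cell markers (5 of 6 genes tested) were 7.67, 2.16 and 5.49 CPM and 4.07, 5.73 and 5.60 CPM, with wild-type mouse 1 the highest.

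Wild-type mouse 1 had the lowest level of fibroblast markers. Summed fibroblast markers (9 genes) were 2190, 3886 and 3453 CPM in wild-type and 5395, 4851 and 4813 CPM in IL-21isoTg mice, with all IL-21isoTg mice above all wild-type mice. Pdgfra, which encodes the depleted antigen CD140a, was at 15.8, 40.2 and 48.5 CPM and at 60.4, 50.5 and 43.7 CPM. Summed endothelial markers (8 genes) were 114, 248 and 99.8 CPM and 351, 296 and 148 CPM, and Pecam1, which encodes CD31, was at 20.6 to 86.2 CPM over the 6 mice. Summed macrophage markers (9 of 12 genes tested) were 184, 277 and 233 CPM and 351, 398 and 163 CPM. Summed markers of red blood cells (4 of 5 genes tested) were 74.6, 6.68 and 14.5 CPM and 99.5, 5.73 and 29.3 CPM. The part of these cells in the levels of the cell cycle genes was not tested.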

How the data were processed

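Poly(A)-selected RNA of MECs (3 mice per genotype) was sequenced from libraries made with a directional kit. The submitters' processing notes name FastQC 0.11.7, Trimmomatic 0.38, HISAT2 2.1.0, SAMtools 1.9, featureCounts 1.6.3, DESeq2 1.24.0 and the mm10 genome, without settings. The authors deposited unnormalised read counts per gene, which were used here. A table of the same counts divided by size factors and a table of the authors' genotype comparison (fold changes and p-values) were not used.

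Genes were filtered with filterByExpr in edgeR 4.0.16 (minimum count 10, minimum total 15), scaled with TMM and compared with edgeR's robust quasi-likelihood test (genotype as the only term, R 4.3.3), with Benjamini-Hochberg adjustment over 17165 genes and a threshold of 0.05. All 47 genes passed the filter. Alternatives used DESeq2 1.42.0, limma 3.58.1 (voom), other scalings, filters and dispersions, a replicate block and each mouse left out. Leaving out wild-type mouse 1 together with IL-21isoTg mouse 3 was added after the data were seen. The code was tested on simulated counts. The 47 genes and the lists were chosen with earlier results of these data known. Full values are given for 24 genes spread over the roles, for the 5 genes with the smallest p and the 5 with the largest difference; from pathway lists, up to 8 genes with an unadjusted p under 0.05 are named. Mcm6, Kif20a, Gins2, Ccnd3, Cdk4, Esr1, Fgfr2, Erbb2 and single epithelial markers were added after their values were seen. Total counts per mouse were 15902886 to 25719244, and intervals cover counting error only. Of 19 salivary gland symbols, 18 were found. Exon lengths came from GENCODE M21 (GRCm38), and figures were drawn with matplotlib.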

Additional observations from a re-analysis of the deposited data

How the results depend on the processing

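The 47 cell cycle genes were called in none of the settings tried (edgeR with other scalings, filters or dispersions, DESeq2, limma-voom, the likelihood ratio test, the replicate block, and mice left out). The smallest adjusted p among them was 0.0647 with DESeq2 and 0.0984 with the likelihood ratio test. Their median log2 fold change stayed below 0, between -1.70 and -0.32. The count at an unadjusted p under 0.05, 19 in the comparison reported, rose to 27 with DESeq2 and to 26 with the likelihood ratio test. In these settings 507 and 439 of all 17165 genes were lower at that level. The count was 9 with no filter on low counts (19.1%, against 1.96% of all genes) and 8 with limma-voom (17%, against 2.36%). It was 2 with wild-type mouse 1 and IL-21isoTg mouse 3 both left out (4.26%, against 3.51%). With 1 mouse left out at a time it ran from 1 to 37. Over all genes, 0 were called in the comparison reported (999 at an unadjusted p under 0.05), 14 with no filter, 81 with DESeq2, 65 with the likelihood ratio test, 7 with those 2 mice left out, and 0 to 6 with 1 mouse left out. Replicate numbers are shared by the genotypes in name only (correlations of same-numbered mice -0.224, 0.068 and -0.062), and with the replicate number as a block 10 of the 47 genes had an unadjusted p under 0.05 (21.3%, against 1.47% of all genes). With 1 mouse left out the log2 fold change of Ccnb1 ran from -1.90 to 0.58, of Plk1 from -1.22 to 0.0512, of Birc5 from -1.61 to 0.27, of Cenpa from -1.75 to 0.07 and of Kif11 from -1.85 to 0.26, each above 0 only without wild-type mouse 1. With those 2 mice left out, the values above 0 among the genes with full statistics were 0.15 for Ccne1, 0.60 for Ccnb1, 0.19 for Foxm1 and 0.09 for Kif11. The cause was not tested beyond the mice left out. A p from 3 mice against 3 has few degrees of freedom, and at 4 to 14 counts (Aurkb and Cdc25c in IL-21isoTg mice 1 and 3) counting error adds to the spread.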
